A study of Mus musculus with 32 samples.

Results

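The mouse genes of the Dlx interneuron program and of GABA synthesis and transport were followed across 32 neurosphere cultures grown from brain tumours. They were a named list, chosen with earlier results of these data known. It held the homeobox genes Dlx1, Dlx2, Dlx5 and Dlx6 and the LIM homeobox gene Lhx6. The others were the GABA-producing enzymes Gad1 and Gad2 and the vesicular GABA transporter Slc32a1. All 8 were measured, among 19938 genes in all, and each had 1 probe set. The cells of origin came from Trp53-deficient mice (strain B6;129-Trp53tm1Brd): neurospheres grown from the wall of the lateral ventricle after birth, given oncogenes and put into the brain of a host. Cells that expressed the transgene were sorted from the tumours and grown as spheres, and 1 Affymetrix Mouse Gene 1.0 ST array was run per culture.

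The groups differed in the added genes. Primitive neuroectodermal tumours (PNET) were raised with MYC+Bmi1 (3 arrays), with MYC+Ezh2 (5 arrays) and with MYC alone (6 arrays). Gliomas were raised with HRAS+Bmi1 (2 arrays) and with HRAS alone (5 arrays). Tumours resembling atypical teratoid/rhabdoid tumour came from cells given HRAS+MYC together (7 arrays). In 2 further groups the oncogenes were given one after the other: cells of a MYC tumour later received HRAS (MYC then HRAS, 2 arrays), and cells of an HRAS tumour later received MYC (HRAS then MYC, 2 arrays). Loss of Trp53 was shared by every group, so no array had intact Trp53. The promoter that drove the transgenes is not given in the sources used here, nor is whether replicates came from separate tumours, so p-values measure the spread between these arrays, which may be technical.

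Dlx proteins are transcription factors of the ventral forebrain, where progenitors make GABA neurons, and after birth they mark the young neurons that leave the ventricle wall for the olfactory bulb. The genes lie in convergently transcribed pairs, Dlx1 beside Dlx2 and Dlx5 beside Dlx6. Dlx1 and Dlx2 act early, Dlx5 and Dlx6 follow, and Gad1, Gad2 and Slc32a1 give the neuron its transmitter: both Gad enzymes make GABA from glutamate, and the Slc32a1 protein loads it into vesicles. Lhx6 marks the interneurons of the medial ganglionic eminence. Ezh2, the methyltransferase of one Polycomb complex, and Bmi1, a subunit of the other, belong to repressors that bind promoters rich in CG dinucleotides and hold developmental genes such as the Dlx genes silent.

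In the RefSeq annotation of build GRCm38.p6, 6 of the 8 genes lie on chromosome 2 and 2 on chromosome 6. Dlx1 (chr2:71528113-71533981) and Dlx2 (chr2:71543408-71546754) are 9.43 kb apart, and Gad1 (chr2:70561303-70602014) lies 0.926 Mb before Dlx1. Dlx6 (chr6:6863334-6867970) and Dlx5 (chr6:6877801-6882068) are 9.83 kb apart. Gad2 (chr2:22621015-22693877), Lhx6 (chr2:36081950-36105992) and Slc32a1 (chr2:158607260-158615747) stand alone, and the mouse Bmi1 gene is 3.93 Mb from Gad2.

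RefSeq promoter windows, 250 bases before to 50 after a listed start site, were found for 6 of the 8 genes. For Dlx1, Gad1, Gad2 and Slc32a1 the whole window lies inside the gene coordinates given above. The start site used for them is therefore not the outer end of the gene. The windows of the pair that was high in HRAS+Bmi1 cultures (Dlx1, Dlx2) and of the 3 GABA genes are shown because these genes had unlike differences in the Bmi1 comparisons, and capitals mark each CG dinucleotide. The windows are chr2:71529195-71529494 (plus strand) for Dlx1, chr2:71546705-71547004 (minus strand) for Dlx2, chr2:70561879-70562178 (plus strand) for Gad1, chr2:22622077-22622376 (plus strand) for Gad2 and chr2:158610508-158610807 (plus strand) for Slc32a1.
Dlx1: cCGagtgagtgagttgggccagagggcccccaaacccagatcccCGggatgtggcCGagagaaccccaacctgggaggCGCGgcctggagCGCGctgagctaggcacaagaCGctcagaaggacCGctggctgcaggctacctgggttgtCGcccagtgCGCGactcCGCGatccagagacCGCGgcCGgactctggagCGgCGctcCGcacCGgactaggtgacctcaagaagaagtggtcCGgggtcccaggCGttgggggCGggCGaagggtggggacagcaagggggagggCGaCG
Dlx2: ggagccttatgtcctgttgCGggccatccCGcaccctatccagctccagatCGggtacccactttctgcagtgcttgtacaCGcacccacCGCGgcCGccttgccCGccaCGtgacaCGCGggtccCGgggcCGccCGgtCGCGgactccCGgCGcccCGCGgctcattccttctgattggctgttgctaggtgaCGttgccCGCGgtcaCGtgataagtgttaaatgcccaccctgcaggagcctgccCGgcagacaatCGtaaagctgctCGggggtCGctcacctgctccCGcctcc
Gad1: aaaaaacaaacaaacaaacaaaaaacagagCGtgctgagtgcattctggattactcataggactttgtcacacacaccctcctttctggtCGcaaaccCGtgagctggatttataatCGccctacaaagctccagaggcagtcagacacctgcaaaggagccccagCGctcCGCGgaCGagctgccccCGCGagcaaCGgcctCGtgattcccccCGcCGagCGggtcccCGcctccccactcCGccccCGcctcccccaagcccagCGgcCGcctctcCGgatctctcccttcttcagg
Gad2: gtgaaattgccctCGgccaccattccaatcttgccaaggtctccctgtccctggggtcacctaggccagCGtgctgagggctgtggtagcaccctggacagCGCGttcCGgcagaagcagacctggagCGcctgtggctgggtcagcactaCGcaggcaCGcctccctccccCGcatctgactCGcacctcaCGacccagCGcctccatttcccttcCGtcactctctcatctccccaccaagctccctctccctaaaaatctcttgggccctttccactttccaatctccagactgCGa
Slc32a1: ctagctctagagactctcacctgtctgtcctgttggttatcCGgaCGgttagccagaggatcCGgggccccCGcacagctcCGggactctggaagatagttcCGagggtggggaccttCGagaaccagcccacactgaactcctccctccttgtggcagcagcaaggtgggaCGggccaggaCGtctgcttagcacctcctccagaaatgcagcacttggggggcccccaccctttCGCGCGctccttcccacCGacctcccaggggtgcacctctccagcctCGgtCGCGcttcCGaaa

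The Dlx2 window held 29 CG dinucleotides and the Dlx1 window 27, more than 87.1% and 84.5% of the 32851 promoters of the table, whose median was 7. Gad1 had 21, Slc32a1 17 and Gad2 14, which is more than 75.2%, 68.6% and 63.7% of promoters. The motifs searched on both strands were TAATTA, a core read by homeodomain proteins, and CACGTG, the E-box read by MYC with MAX. CACGTG, whose middle is itself a CG, was found in the Dlx2 window only among these 5, at 142 and 42 bases before the start, and 7.15% of all promoters hold it. TAATTA (5.29% of promoters) was in none of the 5 windows. These are matches of letters, not binding sites.

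The added genes were read first as a check of the labels. Ezh2 was 12.16 ± 0.119 in MYC+Ezh2 cultures and 10.52 ± 0.324 in MYC cultures (mean log2 ± SD, n = 5 and 6), a difference of 1.64 (adjusted p = 7.96e-07, limma). Bmi1 was 10.13 ± 0.113 in MYC+Bmi1 and 9.89 ± 0.174 in MYC cultures (n = 3 and 6), a difference of 0.24 that did not pass (adjusted p = 0.668), so the mouse Bmi1 probe set did not bear out that label. In HRAS+Bmi1 cultures Bmi1 was 10.38 ± 0.447, against 9.49 ± 0.443 in HRAS cultures (n = 2 and 5), higher by 0.89 (adjusted p = 0.0152). It was higher by 0.58 without HRAS+Bmi1 replicate 1, and did not pass in a limma fit of the 2 groups alone (adjusted p = 0.199). The arrays overlapped, with HRAS replicate 3 at 10.23 and HRAS+Bmi1 replicate 2 at 10.06. Ezh2 was also higher in HRAS+Bmi1 than in HRAS cultures, by 0.70 (adjusted p = 0.0491). Directions drawn from the Bmi1 groups below therefore refer to the cultures labelled so. The mouse Myc probe set averaged 11.36 in HRAS and 7.00 in MYC cultures and did not mark the cultures given MYC. Means of the microglia and endothelial lists were below the array median in every group, with at most 1 of 6 and 0 of 5 genes above it. That 1 gene was Cd68, at 8.62 to 10.96 in HRAS+MYC, 9.11 to 10.20 in MYC then HRAS and 6.86 to 11.21 in HRAS cultures. Cd68 was 6.38 to 7.25 in HRAS+Bmi1, 6.11 to 6.70 in HRAS then MYC, and 5.39 to 6.79 in groups without HRAS. The endothelial gene Pecam1 reached 7.50 in HRAS cultures. MYC replicates 4 and 5 stood apart, with means over 8 neural stem genes of 7.36 and 8.03, against 9.35 to 9.95 in the other MYC arrays, and values without them are given where a count changes.

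All values are log2 expression as deposited, on which 1 unit is a 2-fold difference, and the median gene of an array lay between 6.10 and 6.43. A gene passed a comparison at an adjusted p under 0.05 in a limma fit of all 8 groups, with Benjamini-Hochberg adjustment over the 19938 genes. Dlx5 spanned 6.38 log2 units over the 32 arrays, a wider range than 99.4% of genes, and Dlx1, Gad2, Dlx2 and Slc32a1 spanned 5.25, 5.20, 4.87 and 4.58. Gad1 spanned 3.24, Dlx6 2.92 and Lhx6 1.78. As these are bulk cultures, more cells of one type and more RNA per cell cannot be told apart.

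**Figure D1:**
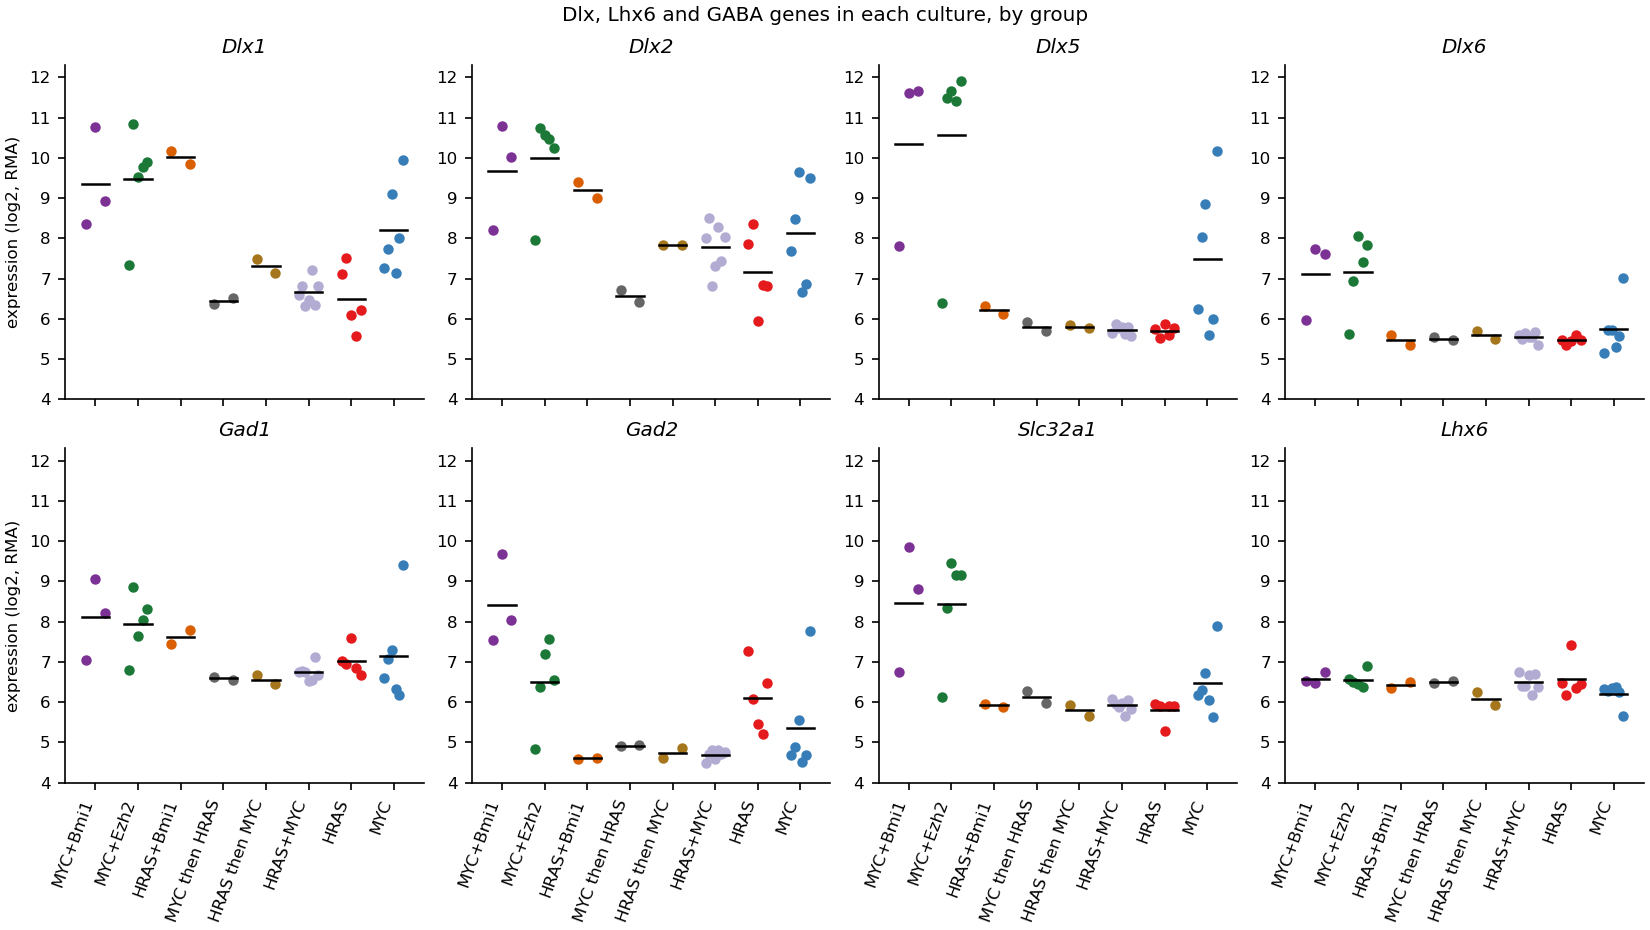
Expression of the 8 genes in each of the 32 cultures (vertical axis, log2 RMA value), by group (horizontal axis). Each point is 1 array and each bar a group mean. Dlx5, Dlx6 and Slc32a1 were highest in MYC+Bmi1 replicates 2 and 3, MYC+Ezh2 replicates 2 to 5 and MYC replicate 6. In HRAS+Bmi1 cultures those 3 genes were low and Dlx1 and Dlx2 were high.

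Dlx1 and Dlx2, the early pair, were high in most cultures labelled with a Polycomb gene, whether beside MYC or beside HRAS. Dlx1 was 8.36, 10.76 and 8.94 in MYC+Bmi1 cultures, 7.33, 10.83, 9.52, 9.77 and 9.90 in MYC+Ezh2 cultures, and 10.16 and 9.86 in HRAS+Bmi1 cultures. MYC then HRAS cultures were at 6.37 and 6.53 and HRAS then MYC cultures at 7.49 and 7.13, and Dlx1 was 6.31 to 7.22 (median 6.60) in HRAS+MYC, 7.12, 7.51, 6.10, 5.58 and 6.22 in HRAS, and 7.15 to 9.95 (median 7.87) in MYC cultures. Of the 18 arrays from cells given HRAS, the 2 with Bmi1 were the highest in Dlx1, and the next was at 7.51.

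Dlx2 followed Dlx1 with less separation between groups. It was 8.22, 10.80 and 10.03 in MYC+Bmi1 cultures, 7.96, 10.74, 10.56, 10.46 and 10.25 in MYC+Ezh2, and 9.40 and 9.0 in HRAS+Bmi1. MYC then HRAS cultures were at 6.73 and 6.42 and HRAS then MYC cultures at 7.84 and 7.84, and Dlx2 was 6.82 to 8.50 (median 8.02) in HRAS+MYC, 7.86, 8.37, 5.94, 6.84 and 6.83 in HRAS and 6.67 to 9.65 (median 8.08) in MYC cultures. Both HRAS+Bmi1 arrays again lay above every other array given HRAS, and inside the range of the MYC arrays.

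Dlx5 and Dlx6, the later pair, were high in some PNET cultures and low in every culture given HRAS, HRAS+Bmi1 included. Dlx5 was 7.82, 11.60 and 11.65 in MYC+Bmi1 cultures, 6.39, 11.49, 11.67, 11.40 and 11.91 in MYC+Ezh2 cultures, and 5.61 to 10.18 (median 7.13) in MYC cultures. It was 6.32 and 6.12 in HRAS+Bmi1 cultures, and between 5.52 and 5.92 in the 16 other arrays given HRAS. Within both Polycomb PNET groups replicate 1 was low and the others stood close together, and in the MYC group replicate 6 was the highest at 10.18.

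Dlx6 had its highest group means in the same 3 PNET groups as Dlx5, while the order of the other groups differed. It was 5.98, 7.74 and 7.61 in MYC+Bmi1 cultures, 5.62, 6.93, 8.07, 7.42 and 7.83 in MYC+Ezh2 cultures and 5.15 to 7.02 (median 5.64) in MYC cultures. In HRAS+Bmi1 cultures it was 5.6 and 5.35, and over all 18 arrays given HRAS it ran from 5.35 to 5.69. The 7 arrays at 6.93 or above were MYC+Bmi1 replicates 2 and 3, MYC+Ezh2 replicates 2 to 5 and MYC replicate 6, and those were also the highest in Dlx5.

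**Figure D2:**
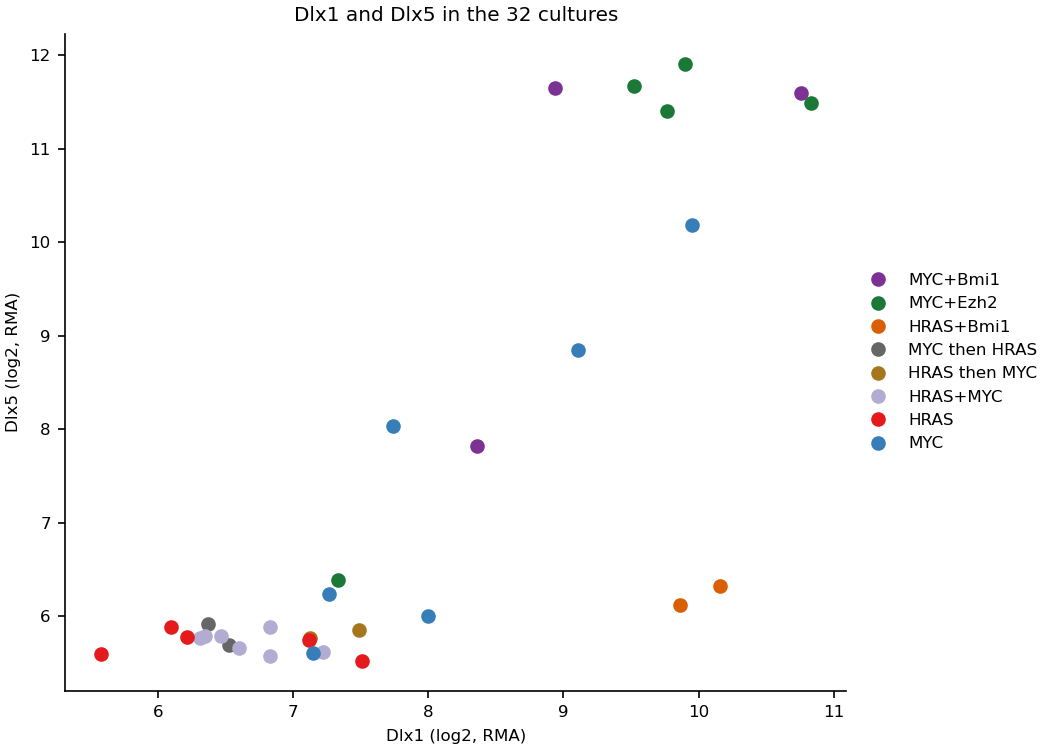
Dlx1 (horizontal axis) against Dlx5 (vertical axis), both log2 RMA values, 1 point per culture, coloured by group. The HRAS+Bmi1 arrays lie apart, with Dlx1 at 9.86 and 10.16 and Dlx5 at 6.12 and 6.32, while the 2 PNET arrays with Dlx1 in that range had Dlx5 at 10.18 and 11.91.

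Slc32a1, the vesicular transporter, was high in those same 7 PNET cultures. It was 6.74, 9.86 and 8.82 in MYC+Bmi1 cultures, 6.14, 8.34, 9.46, 9.15 and 9.16 in MYC+Ezh2 cultures and 5.64 to 7.90 (median 6.24) in MYC cultures. It was 5.95 and 5.89 in HRAS+Bmi1 cultures and 5.29 to 6.28 over all arrays given HRAS. The 7 arrays reached at least 7.90, and no other array was above 6.74.

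Gad2, which makes GABA at nerve endings, differed from Slc32a1 in where it was raised. It was 7.54, 9.69 and 8.04 in MYC+Bmi1 cultures, 4.84, 6.38, 7.20, 7.57 and 6.54 in MYC+Ezh2 cultures and 4.52 to 7.76 (median 4.79) in MYC cultures. It was 4.6 and 4.62 in HRAS+Bmi1 cultures, 4.91 and 4.93 in MYC then HRAS, 4.61 and 4.86 in HRAS then MYC, 4.49 to 4.80 (median 4.72) in HRAS+MYC, and 7.27, 6.09, 5.45, 5.20 and 6.48 in HRAS cultures. MYC+Bmi1 replicate 1, low in Dlx5 and Slc32a1, was not low in Gad2, and HRAS alone was the one HRAS-carrying group with values above 5.

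Gad1, the enzyme that makes most of the brain's GABA, ranged less. It was 7.05, 9.05 and 8.22 in MYC+Bmi1 cultures, 6.81, 8.86, 7.65, 8.04 and 8.32 in MYC+Ezh2 and 6.17 to 9.41 (median 6.83) in MYC cultures. It was 7.45 and 7.80 in HRAS+Bmi1 cultures, 7.03, 6.95, 7.60, 6.85 and 6.68 in HRAS cultures, and 6.45 to 7.12 in the other arrays given HRAS. MYC replicate 6 was the highest of all 32 arrays.

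Lhx6 stayed close to the median gene of its array. It was 6.53, 6.47 and 6.75 in MYC+Bmi1 cultures, 6.38 to 6.89 in MYC+Ezh2 cultures and 5.66 to 6.37 in MYC cultures. It was 6.34 and 6.50 in HRAS+Bmi1 cultures, and between 5.66 and 7.43 over all arrays. The highest was HRAS replicate 3 and the lowest MYC replicate 6, so the array with the most Gad1 had the least Lhx6.

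**Figure D3:**
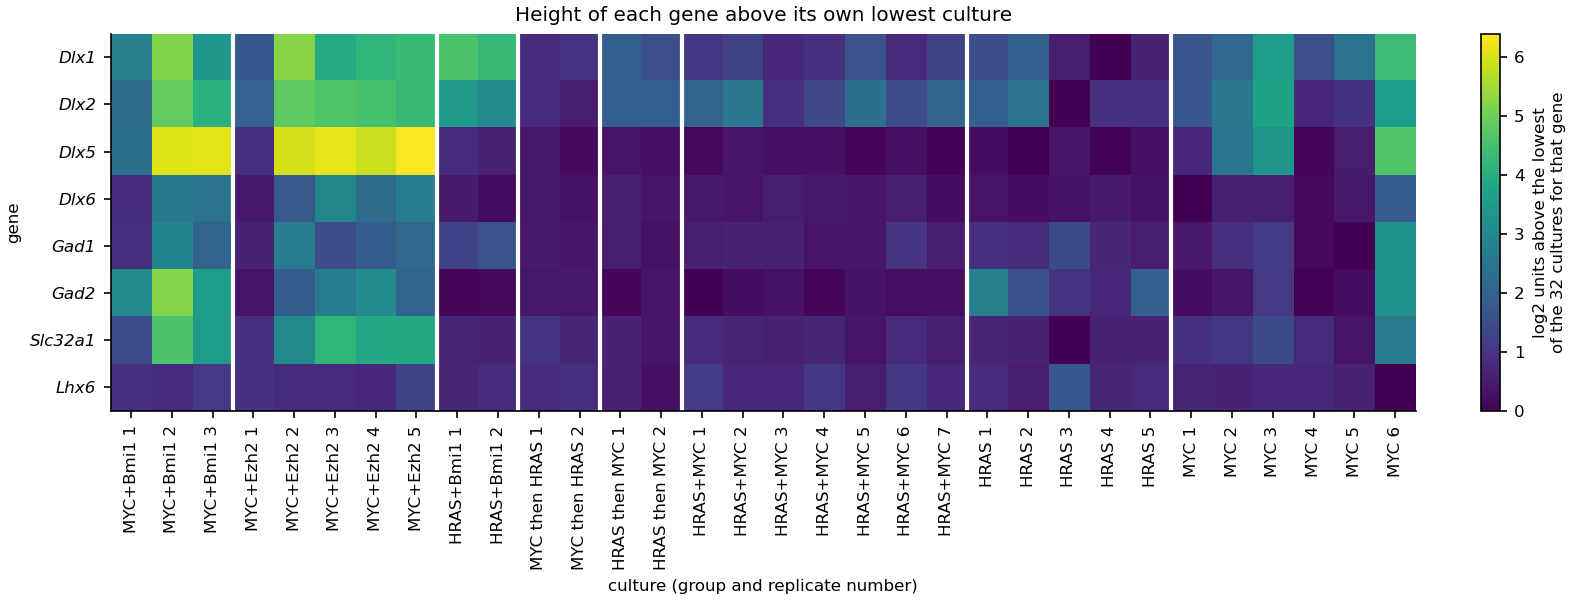
Height of each gene (rows) above its own lowest array, in log2 units (colour scale), in the 32 cultures (columns, by group and replicate number). Dlx5, Dlx6 and Slc32a1 light up in the same 7 PNET columns, HRAS+Bmi1 columns are brightest in Dlx1 and Dlx2, and the Lhx6 row stays within 1.78 units.

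In the order of group means, the ranges of neighbouring groups did not overlap in 3 of 56 pairs. These were Dlx5 in HRAS+Bmi1 above MYC then HRAS cultures, Slc32a1 in MYC then HRAS above HRAS+Bmi1 cultures, and Gad2 in MYC then HRAS above HRAS then MYC cultures, all among low values. All 3 pairs were between groups of 2 arrays. The share over all genes was not counted, so the count is no result about these genes. HRAS+Bmi1 cultures came first of the 8 groups in Dlx1, were the third in Dlx2 and came last in Gad2.

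Bmi1 beside MYC was compared with MYC alone, which asks what the Polycomb gene adds in PNET cells. Gad2 rose in MYC+Bmi1 cultures: it averaged 8.42 ± 1.13 there and 5.35 ± 1.23 in MYC cultures (SD, n = 3 and 6), a difference of 3.07 ± 0.570 (SE), or 8.41-fold (adjusted p = 0.0196). Gad2 was the 1 gene of the 8 that passed, where 0.15% of all genes passed. Its arrays overlapped between the groups, with MYC replicate 6 at 7.76 and MYC+Bmi1 replicate 1 at 7.54. The other differences were 2.87 ± 0.949 for Dlx5, 2.00 ± 0.548 for Slc32a1, 1.54 ± 0.654 for Dlx2, 1.36 ± 0.389 for Dlx6, 1.15 ± 0.598 for Dlx1, 0.96 ± 0.480 for Gad1 and 0.38 ± 0.195 for Lhx6, with adjusted p between 0.126 and 0.458. The median difference of the 8 was 1.45, against 0.02 over all genes.

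Single cultures decided which genes passed there. Without MYC+Bmi1 replicate 1, 4 of the 8 passed: Gad2, Slc32a1 (2.87, adjusted p = 0.00734), Dlx6 (1.93, adjusted p = 0.016) and Dlx5 (4.14, adjusted p = 0.0345). Without MYC replicate 6, 3 passed: Gad2, Dlx6 (1.62, adjusted p = 0.0415) and Slc32a1 (2.29, adjusted p = 0.0485). Gad2 no longer passed without MYC+Bmi1 replicate 2 (2.44, adjusted p = 0.134) or replicate 3 (3.26, adjusted p = 0.0723), nor in a fit of the 2 groups alone (adjusted p = 0.615).

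Neuron markers were read beside these genes in single arrays. The mean of 9 neuron genes was 7.58 to 9.34 over MYC+Bmi1 arrays, 6.97 to 9.17 over MYC+Ezh2 arrays and 6.97 to 8.87 over MYC arrays. MYC replicates 4 and 5, which stood apart in stem genes, had the highest means of the MYC group, 8.72 and 8.87. Their Dlx5 was 5.61 and 6.00 and their Gad2 4.52 and 4.70. MYC replicate 6, with a mean of 8.41, had Dlx5 at 10.18 and Gad2 at 7.76. MYC replicates 1, 2 and 3 had means of 7.04, 6.97 and 7.49, with Dlx5 at 6.24, 8.03 and 8.85. MYC+Ezh2 replicate 1 had the lowest mean of its group, 6.97 against 8.27 to 9.17, and the lowest Dlx5, 6.39. MYC+Bmi1 replicate 1 had a mean of 9.09 with the lowest Dlx5 of its group, 7.82. Replicate 3 of that group had the lowest mean, 7.58, with Dlx5 at 11.65. The part of neuron content in the Gad2 result was not tested.

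Ezh2 beside MYC gave differences of like size for the Dlx genes and Slc32a1, and none of the 8 genes passed, where 0.246% of all genes passed. MYC+Ezh2 minus MYC was 3.09 ± 0.813 (SE) for Dlx5, 1.98 ± 0.469 for Slc32a1, 1.85 ± 0.560 for Dlx2, 1.43 ± 0.333 for Dlx6, 1.27 ± 0.512 for Dlx1 and 1.15 ± 0.488 for Gad2. Adjusted p was 0.0669 for Dlx6, 0.0719 for Slc32a1 and 0.114 or more for the others, and 7 of the 8 had an unadjusted p under 0.05, as did 10.8% of all genes. The median difference was 1.35, against 0.02 over all genes. These comparisons share their MYC arrays with the Bmi1 comparison.

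Replicate 1 of MYC+Ezh2, low in all 4 Dlx genes, set this count. Without it 4 genes passed: Slc32a1 (2.56, adjusted p = 0.000919), Dlx5 (4.13, adjusted p = 0.0012), Dlx6 (1.82, adjusted p = 0.0012) and Dlx2 (2.36, adjusted p = 0.0236). Without MYC replicate 6, Dlx6 (1.68, adjusted p = 0.0194), Slc32a1 (2.27, adjusted p = 0.0272) and Dlx5 (3.63, adjusted p = 0.0348) passed.

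MYC+Bmi1 and MYC+Ezh2 cultures were then set against each other. None of the 8 genes passed, and 0.00502% of all genes did. Gad2 was 1.92 ± 0.588 higher in MYC+Bmi1 than in MYC+Ezh2 cultures (unadjusted p = 0.00299, adjusted p = 1). The difference was −0.21 for Dlx5, with a 95% interval of −2.22 to 1.80, and 0.02 for Slc32a1, with an interval of −1.14 to 1.18, so differences of a few fold either way could not be told from 0.

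**Figure D4:**
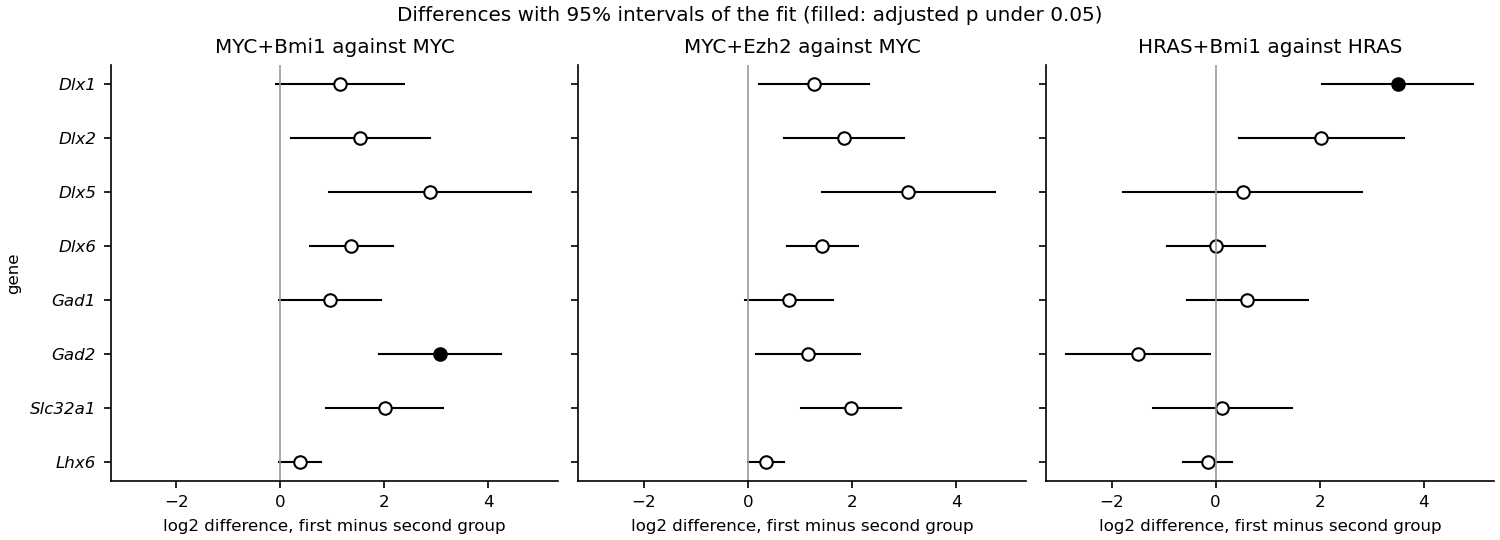
Log2 difference (horizontal axis) of each gene in MYC+Bmi1 against MYC, MYC+Ezh2 against MYC and HRAS+Bmi1 against HRAS cultures. Points are fitted differences, lines their 95% intervals, and filled points passed at an adjusted p under 0.05. Gad2 (3.07) is filled in the first panel, none in the second and Dlx1 (3.51) in the third, where Gad2 lies at −1.49.

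Bmi1 beside HRAS was compared with HRAS alone, the same question in glioma cells, and the order of the genes was different. Dlx1 rose in HRAS+Bmi1 cultures: it averaged 10.01 ± 0.211 there and 6.51 ± 0.789 in HRAS cultures (SD, n = 2 and 5), a difference of 3.51 ± 0.707 (SE), or 11.4-fold (adjusted p = 0.00265). It was the 1 gene of the 8 that passed, where 5.91% of all genes passed. Dlx2 was 2.03 ± 0.774 higher (adjusted p = 0.132). Dlx1, Dlx2 and Dlx5 were higher with no overlap between the arrays of the groups, as were 11% of all genes. The later pair and the transporter differed little: 0.52 for Dlx5 (95% interval −1.79 to 2.82), 0.00 for Dlx6 (−0.94 to 0.95) and 0.13 for Slc32a1 (−1.20 to 1.46).

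The GABA enzymes went opposite ways in these glioma cultures without passing. Gad1 was 0.61 ± 0.567 higher (adjusted p = 0.681) and Gad2 was −1.49 ± 0.674 in HRAS+Bmi1 minus HRAS, with both HRAS+Bmi1 arrays below every HRAS array (adjusted p = 0.229), as in 11.7% of all genes. Lhx6 differed by −0.16 ± 0.230 (adjusted p = 0.842). The median difference of the 8 was 0.33, against −0.01 over all genes. The Dlx1 call was lost without HRAS+Bmi1 replicate 1 (3.36, adjusted p = 0.0943) and held in a fit of the 2 groups alone (adjusted p = 0.0138).

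Means of the stem cell and astrocyte lists were also at other levels in these cultures, though not all of their genes were. The mean of 8 neural stem genes was 9.69 and 9.81 in HRAS+Bmi1 cultures and 8.13 to 8.95 in HRAS cultures. Nes, Msi1, Fabp7 and Prom1 lay above every HRAS array, while Sox2, Vim, Pax6 and Hes5 overlapped the HRAS range. The mean of 6 astrocyte genes was 6.49 and 6.67, against 5.35 to 6.16 in HRAS cultures. Aldh1l1, Gfap and Slc1a2 lay above every HRAS array, while Aqp4, Slc1a3 and S100b overlapped. Of all genes, 11% were higher with no overlap in this comparison. The mean of 9 neuron genes, 6.55 and 6.71 in HRAS+Bmi1 cultures, lay inside the HRAS range of 5.59 to 7.19. Their part in the Dlx1 result was not tested.

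The wider pathway was read from 6 lists with 80 measured genes. In HRAS+Bmi1 against HRAS cultures, 1 of 10 ventral forebrain regulators passed and was lower, 2 of 19 other Dlx and interneuron factors passed and were lower, and of 14 interneuron subtype markers 3 were higher and 1 lower. Of 6 genes of GABA uptake and breakdown 1 was higher, of 17 GABA receptor and anchor genes 1 was higher, and of 14 dorsal and glutamatergic factors none passed. That made 9 of the 80 list genes, beside the 5.91% of all genes that passed, and several lists lay near that share. List medians ran from −0.05 for GABA receptors to 0.83 for GABA uptake.

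The genes that rose named in those lists were the calcium-binding protein Calb1, the GABA transporter Slc6a11, the GABA-A receptor subunit Gabrg3, the serotonin receptor Htr3a and the neuropeptide Npy. Calb1 was 9.84 and 8.82 in HRAS+Bmi1 cultures, against 3.48, 3.57, 3.71, 3.58 and 3.34 in HRAS cultures, a difference of 5.79 ± 0.302 (adjusted p = 5.73e-13). Gabrg3 differed by 3.54 ± 0.341 (adjusted p = 8.58e-08), Npy by 1.75 ± 0.274 (adjusted p = 0.000183), Slc6a11 by 3.68 ± 0.639 (adjusted p = 0.000582) and Htr3a by 2.63 ± 0.661 (adjusted p = 0.0152). Calb1, Gabrg3 and Npy passed with any 1 of the 7 arrays left out. Slc6a11 did not pass without HRAS+Bmi1 replicate 1 (3.33, adjusted p = 0.0535), and Htr3a did not without HRAS+Bmi1 replicate 1 (2.91, adjusted p = 0.132) or 2 (2.35, adjusted p = 0.219).

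The genes that fell were the forebrain homeobox gene Six3 (−1.13 ± 0.203, adjusted p = 0.000872), the interneuron chromatin factor Satb1 (−1.0 ± 0.285, adjusted p = 0.0328), the nuclear receptor Nr2f1 (−1.73 ± 0.512, adjusted p = 0.0428) and the enkephalin precursor Penk (−3.61 ± 1.07, adjusted p = 0.043). Six3 passed with any 1 array left out. Satb1, Nr2f1 and Penk each passed in at most 3 of the 7 such fits, with adjusted p up to 0.333, 0.449 and 0.322.

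**Figure D5:**
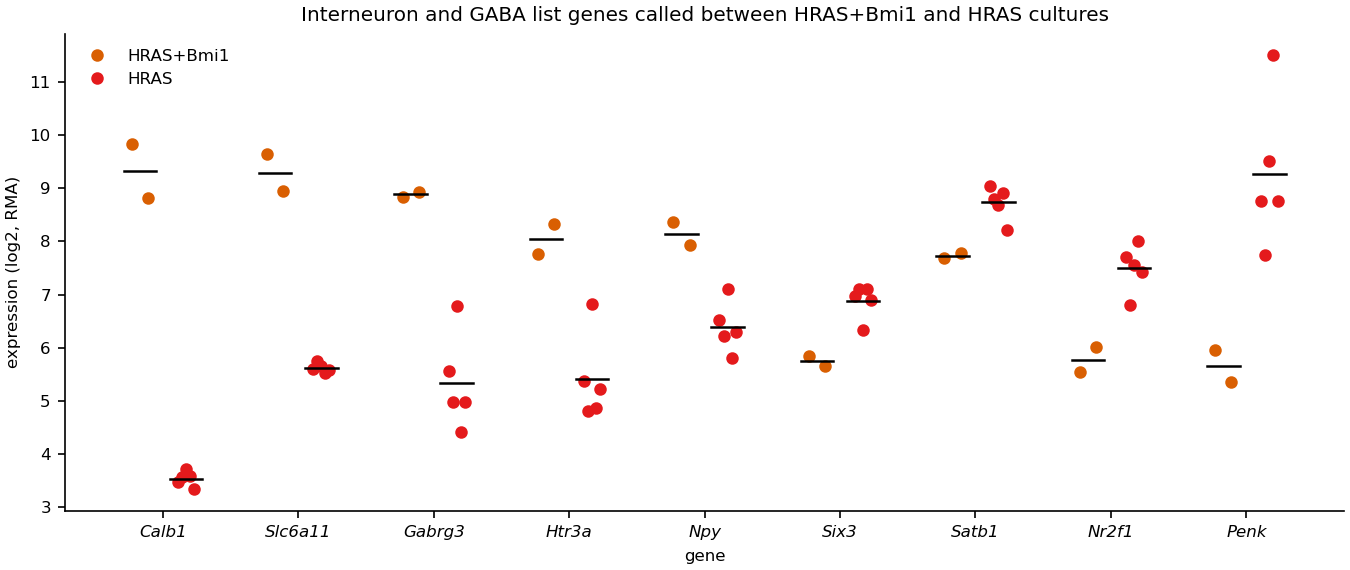
Expression (vertical axis, log2 RMA value) of the 9 list genes that passed between HRAS+Bmi1 (left in each pair) and HRAS cultures (right in each pair), 1 point per array with bars at group means. Calb1 shows the widest gap, 9.84 and 8.82 in HRAS+Bmi1 arrays and 3.34 to 3.71 in HRAS arrays.

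In MYC+Bmi1 against MYC cultures none of the 80 list genes passed, and list medians ran from −0.25 to 0.26. In MYC+Ezh2 against MYC cultures 3 passed and were higher, named after their values were seen: the zinc finger factors of olfactory bulb interneurons Sp8 (2.81, adjusted p = 0.0377) and Sp9 (1.06, adjusted p = 0.0452), and the medial ganglionic eminence factor Nkx2-1 (0.92, adjusted p = 0.0341). With 1 array left out, Sp8 and Sp9 passed in 3 and Nkx2-1 in 5 of 11 fits, with adjusted p up to 0.156, 0.177 and 0.155. None of the 3 passed in a fit of the 2 groups alone (adjusted p = 0.436, 0.429 and 0.436). Sp8 was 5.11, 8.85, 9.14, 8.93 and 9.16 in MYC+Ezh2 cultures and 4.66, 5.90, 6.04, 4.09, 4.49 and 7.37 in MYC cultures, so replicate 1 was low as it was in Dlx5.

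The Bmi1 differences of both settings were compared directly. For Gad2 the MYC+Bmi1 minus MYC difference exceeded the HRAS+Bmi1 minus HRAS difference by 4.56 ± 0.882 (adjusted p = 0.0045), the 1 gene of the 8 that passed, where 2.43% of all genes passed. In a fit of those 4 groups alone its adjusted p was 0.0618. For Dlx1 the value was −2.36 ± 0.926 (adjusted p = 0.182), for Dlx5 2.36 ± 1.47 (adjusted p = 0.448) and for Slc32a1 1.87 ± 0.848 (adjusted p = 0.258), so a difference between settings was not established for the other 7.

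HRAS+Bmi1 cultures were also compared with HRAS+MYC cultures, which differ in the partner of HRAS. Dlx1 rose, with 10.01 ± 0.211 in HRAS+Bmi1 and 6.66 ± 0.323 in HRAS+MYC cultures (SD, n = 2 and 7), a difference of 3.35 ± 0.678 (adjusted p = 0.00072). It was the 1 gene of the 8 that passed, where 17.2% of all genes passed. Dlx1, Dlx2, Dlx5 and Gad1 were higher with no overlap between arrays, as were 17.4% of all genes. In a fit of the 2 groups alone, Gad1 (0.89, adjusted p = 0.00202), Dlx5 (0.49, adjusted p = 0.00967) and Dlx2 (1.42, adjusted p = 0.0209) passed too. Gad2 was 4.61 ± 0.0166 in HRAS+Bmi1 and 4.70 ± 0.113 in HRAS+MYC cultures and did not pass in either fit.

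Gliomas with HRAS were set against PNETs with MYC. Dlx1 fell, with 6.51 ± 0.789 in HRAS and 8.20 ± 1.11 in MYC cultures (SD, n = 5 and 6), a difference of −1.70 ± 0.512 (adjusted p = 0.0104). It was the 1 gene of the 8 that passed, where 33.4% of all genes passed, and beside that share the count is no result about the list. Dlx5 was −1.78 ± 0.813 (adjusted p = 0.096) and Gad2 0.75 ± 0.488 (adjusted p = 0.272). Further genes passed without MYC replicate 4 (Dlx5, −2.16, adjusted p = 0.0458), without MYC replicate 6 (Gad2, 1.23, adjusted p = 0.0187), without HRAS replicate 2 (Lhx6, 0.47, adjusted p = 0.0361), and without MYC replicates 4 and 5 together (Dlx5, −2.62, adjusted p = 0.0179, and Dlx2, −1.66, adjusted p = 0.0229).

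HRAS given together with MYC also went with low Dlx1. It was 6.66 ± 0.323 in HRAS+MYC and 8.20 ± 1.11 in MYC cultures (n = 7 and 6), lower by a log2 difference of −1.54 ± 0.470 (adjusted p = 0.0112), the 1 gene that passed beside 34.2% of all genes. Dlx5, at −1.76 ± 0.747 (adjusted p = 0.0704), passed without MYC replicate 4 (−2.13, adjusted p = 0.0328), without MYC replicate 5 (−2.06, adjusted p = 0.0426) and in a fit of the 2 groups alone (adjusted p = 0.0434). Against HRAS alone, Gad2 fell: 4.70 ± 0.113 in HRAS+MYC and 6.10 ± 0.828 in HRAS cultures (n = 7 and 5), a difference of −1.40 ± 0.472 (adjusted p = 0.0294), and the 1 gene that passed beside 24.7% of all genes. Its arrays did not overlap, as in 7.12% of all genes for that direction. That call was lost without HRAS replicate 1 (−1.11, adjusted p = 0.104) or replicate 5 (−1.31, adjusted p = 0.0692).

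The consecutive designs ask whether the order of the oncogenes matters. None of the 8 genes passed in MYC then HRAS against MYC cultures (20.4% of all genes passed), where Dlx1 was 6.45 ± 0.118 and 8.20 ± 1.11 (n = 2 and 6), a difference of −1.75 ± 0.690 (adjusted p = 0.0737). Dlx1 was lower and Lhx6 higher with no overlap between arrays, as were 13.1% and 14.9% of all genes. Dlx1 passed without MYC replicate 4 (−1.96, adjusted p = 0.0458), and with MYC replicates 4 and 5 both left out Dlx1 (−2.07, adjusted p = 0.0419) and Dlx2 (−2.26, adjusted p = 0.0244) passed. In HRAS then MYC against HRAS cultures none passed (12.5% of all genes did), and Gad2 was 4.73 ± 0.178 and 6.10 ± 0.828 (n = 2 and 5), a difference of −1.37 ± 0.674 (adjusted p = 0.213). Gad1 and Gad2 were lower there with no overlap, as were 12.4% of all genes.

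None of the 8 genes passed between either consecutive group and simultaneous HRAS+MYC cultures. The share of all genes that passed was 0.11% for MYC then HRAS and 12.1% for HRAS then MYC. Dlx2 was −1.2 in MYC then HRAS minus HRAS+MYC cultures, with a 95% interval of −2.72 to 0.32. A difference of several fold there could therefore not be told from 0. Set against each other (3.28% of all genes passed), MYC then HRAS minus HRAS then MYC was −1.26 ± 0.925 for Dlx2 (adjusted p = 0.679), which passed in a fit of those 2 groups alone (adjusted p = 0.0251). Between those groups Gad2, Lhx6 and Slc32a1 were higher and Dlx1 and Dlx2 lower with no overlap, beside 24% and 25.8% of all genes. With 2 arrays a group, intervals were wide, −2.75 to 2.75 for Dlx5.

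Among the 14 arrays without HRAS the genes moved together. Pearson's r was 0.97 between Dlx6 and Slc32a1 and between Dlx2 and Dlx5, 0.95 between Dlx5 and Dlx6 and 0.90 between Dlx1 and Dlx2. Lhx6 stayed between −0.10 and 0.28 with every other member. Spearman's rho was 0.87 to 0.95 for those pairs and 0.20 to 0.51 for Lhx6 with the other members. Among the 18 arrays given HRAS, r was 0.81 between Dlx1 and Dlx2 and 0.15 between Dlx5 and Dlx6, whose values there were low throughout. These arrays share the platform and the groups share cell origin, so r is a description.

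Genes most like each member over the 32 arrays were ranked by Pearson's r. For Dlx5 they were Dlx1as and Sp8 (0.98 each), Slc32a1 (0.96), Dlx6 (0.95) and the axon guidance ligand Slit1 (0.95). For Slc32a1, Sp8 came first (0.98) and the glutamate receptor subunit Grin2d was the fifth (0.96). Dlx1 was most like Dlx2 (0.89), Robo2 and Htr3a (0.85 each). Gad2 was most like the synaptic adhesion gene Nrxn3 (0.83), and Lhx6 most like Tshz3 (0.77). With group means taken off, r stayed at 0.98 for Dlx5 with Sp8 and at 0.75 for Lhx6 with Tshz3.

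Dlx1as is an antisense transcript that shares 3344 bases with Dlx1, and the strand that probe sets read was not examined here. It was 5.94, 11.51 and 9.75 in MYC+Bmi1 cultures, 5.51, 11.02, 10.87, 10.79 and 10.89 in MYC+Ezh2 cultures, 6.57 and 5.81 in HRAS+Bmi1 cultures and 4.92 to 9.88 in MYC cultures. In the other groups given HRAS it lay between 4.75 and 5.38. Both HRAS+Bmi1 arrays were thus above every other array given HRAS, as they were in Dlx1 and Dlx5. They stayed well below the high PNET arrays, as in Dlx5, while Dlx1 was high there.

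Genes beside the Dlx pairs were unlike each other in how they followed them. Hat1 and Slc25a12, before Dlx1, ran from 9.68 to 11.37 and from 8.26 to 10.69 over all arrays, with r to Dlx1 of −0.02 and 0.44. Metap1d, the nearest measured gene before Dlx1, had r of 0.61. After Dlx2, Itga6 had r of −0.70, Pdk1 −0.48 and Platr26 −0.23. Around Dlx6 and Dlx5, Sem1 had r of 0.81 to Dlx5 but ran only from 9.66 to 11.39. Dync1i1 had r of 0.67 and Sdhaf3 0.54, while Slc25a13, Asns and Tac1 had r of −0.03, −0.14 and −0.21. Gorasp2 and Tlk1, after Gad1, had r of −0.48 and 0.09 to Gad1.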

How the data were processed

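Total RNA of 32 cultures was hybridised to Mouse Gene 1.0 ST arrays (Affymetrix). Per the submitters' processing notes, the authors ran RMA in Expression Console 1.0, and the deposited values are log2 expression. The method corrects background, applies quantile normalization and summarises probes, so an overall shift of RNA in a group would not be seen and low values are compressed. The log2 scale follows from the range of the values, from 1.441 to 14.52. Arrays give no counts, so only their number limits the precision.

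Of 35557 probe sets, 21789 had 1 symbol in the platform annotation, 1621 several and 12147 were not listed. Of those with 1 symbol, 99.58% were found in RefSeq (GRCm38.p6), which also gave coordinates and promoters. For 999 genes with more than 1 probe set the brightest on average was kept, leaving 19938 genes.

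One limma 3.58.1 fit in R 4.3.3 had a mean for each of 8 groups, with eBayes, 13 comparisons and the difference of the Bmi1 effects. Adjusted p-values are 2-sided, by Benjamini-Hochberg over all genes, with a threshold of 0.05. The fitting code was tested on simulated data before use. Alternatives were a fit of the compared groups alone, the mean of probe sets, centring on array medians, a filter on dim genes, eBayes with trend and robust, a replicate block, and leaving out arrays.

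No 2 arrays were near duplicates (highest r 0.994, smallest median absolute difference 0.141). Deviations of same-numbered arrays from their group means correlated at −0.30 to 0.43 over 41 pairs, 9 of them above 0.1. Only in MYC+Bmi1 against MYC+Ezh2 were all 3 pairs above 0.1 (0.22 to 0.43), a pairing read from the data and not from the labels, and the block left the count there at 0 of the 8 genes.

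The members and lists were chosen with earlier results of these data known. The 8 genes were named whatever their values, from each list up to 4 passing genes with the largest change in the comparisons of each Bmi1 group with its oncogene alone, and for each member the 5 genes with the highest Pearson r. List genes without a value were not analysed here, and 1 motif search is not reported here.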

Additional observations from a re-analysis of the deposited data

Results flagged for a closer look

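Single arrays stood far from the rest of their group in 9 cases among 32 combinations of gene and group tested with Dixon's test at its 95% critical value, where chance gives about 1 in 20. MYC+Ezh2 replicate 1 was low in Dlx5, at 6.39 where the other 4 arrays were 11.40 to 11.91, and in Dlx2, at 7.96 where they were 10.25 to 10.74. MYC replicate 6 was high in Dlx6 (7.02), Gad1 (9.41) and Gad2 (7.76), where the next arrays were at 5.72, 7.29 and 5.56, and low in Lhx6 (5.66, next 6.24). HRAS replicate 3 was high in Lhx6 (7.43, next 6.48) and low in Slc32a1 (5.29, next 5.90). HRAS+MYC replicate 6 was high in Gad1 at 7.12, with the next array at 6.78.

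The Gad2 difference between Bmi1-labelled cultures and their oncogene alone was unlike in the MYC and HRAS settings. MYC+Bmi1 minus MYC was 4.56 larger than HRAS+Bmi1 minus HRAS (limma, adjusted p = 0.0045). The mouse Bmi1 probe set did not bear out the MYC+Bmi1 label. In HRAS+Bmi1 against HRAS it passed in the fit of all groups, but not in a limma fit of the 2 groups alone (adjusted p = 0.199). Gad2 was 4.60 and 4.62 in HRAS+Bmi1 cultures, as low as in HRAS+MYC (4.49 to 4.80), and 5.20 to 7.27 in HRAS cultures. The difference between settings passed with any 1 of the 16 arrays left out, with adjusted p up to 0.0499. In a fit of the compared groups alone it did not pass (adjusted p = 0.0618).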

How the results depend on the processing

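Of 1784 alternative values of the 8 genes' differences, 1663 kept their direction and side of the threshold, 7 lost a call and 29 gained one. The other 85 were differences below the threshold that changed sign. No called difference turned round. Fitting the compared groups alone gave 0 of the 8 genes in MYC+Bmi1 against MYC and in the difference of the Bmi1 effects, 4 in HRAS+Bmi1 against HRAS+MYC, 2 in HRAS+MYC against MYC and 1 in MYC then HRAS against HRAS then MYC. Centring arrays on their medians gave 2 in HRAS+MYC against MYC, Lhx6 being added (0.39, adjusted p = 0.0353). Without MYC replicates 4 and 5 together, 3 passed in HRAS against MYC, 2 in HRAS+MYC against MYC and 2 in MYC then HRAS against MYC. The causes were not tested.

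Leaving out 1 array gave 0 to 4 genes in MYC+Bmi1 and in MYC+Ezh2 against MYC, 0 to 1 in HRAS+Bmi1 against HRAS, in HRAS+MYC against HRAS and in MYC then HRAS against MYC, and 1 to 2 in HRAS and in HRAS+MYC against MYC. The mean of probe sets, the filter on dim genes (12247 genes left, all 8 kept), eBayes with trend and robust, and the replicate block moved none of these counts. With the replicate block Gad2 in MYC+Bmi1 against MYC remained the 1 gene that passed. Deviations of same-numbered arrays correlated above 0.1 in only 9 of 41 pairs. The block gave 9 in place of 49 genes over the whole table in MYC+Ezh2 against MYC, and calls of Penk, Nr2f1 and Satb1 in HRAS+Bmi1 against HRAS (adjusted p = 0.126, 0.0611 and 0.128) and of Sp8, Sp9 and Nkx2-1 in MYC+Ezh2 against MYC (0.0576, 0.0576 and 0.0596) were lost.

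Counts over all genes moved more. Fits of the compared groups alone gave 1 in place of 30 in MYC+Bmi1 against MYC, 1 in place of 49 in MYC+Ezh2 against MYC, 3 in place of 1 in MYC+Bmi1 against MYC+Ezh2, 533 in place of 1178 in HRAS+Bmi1 against HRAS, 2367 in place of 4074 in MYC then HRAS against MYC, 983 in place of 2495 in HRAS then MYC against HRAS, and 135 in place of 485 for the difference of the Bmi1 effects. Without MYC replicates 4 and 5 the last became 745, MYC+Bmi1 against MYC 245 and MYC+Ezh2 against MYC 202. With 1 array left out, MYC+Bmi1 against MYC ranged from 9 to 234, MYC+Ezh2 against MYC from 4 to 233, MYC+Bmi1 against MYC+Ezh2 from 1 to 11, HRAS+Bmi1 against HRAS from 199 to 1801, HRAS+Bmi1 against HRAS+MYC from 1317 to 3380 (3424 with all), MYC then HRAS against MYC from 1900 to 4286, HRAS then MYC against HRAS from 544 to 2667, MYC then HRAS against HRAS+MYC from 15 to 43 (22 with all), HRAS then MYC against HRAS+MYC from 605 to 2444 (2405 with all), MYC then HRAS against HRAS then MYC from 195 to 578 (653 with all), and the difference of the Bmi1 effects from 98 to 1099.

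By Spearman's rho, Ei24 (0.85) came just before Dlx2 (0.84) among the genes most like Dlx1, and Ror2 (0.90) came first for Dlx5.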

Other observations

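The 6 lists around these genes, 80 measured genes in all, were counted in every comparison. Percentages of all genes given here count both directions together. In HRAS+Bmi1 against HRAS+MYC cultures 18 of the 80 were higher and 0 lower, beside 17.2% of all genes passing in either direction. Of all 19938 genes, 1907 were higher and 1517 lower there. The 18 list genes were 7 of 19 other Dlx and interneuron factors, 4 of 6 genes of GABA uptake and breakdown, 4 of 14 interneuron subtype markers, and 1 gene of each other list. In HRAS+MYC against HRAS cultures 2 list genes were higher and 16 lower, beside 24.7% of all genes (2325 higher and 2596 lower). Of the 16, 9 were among the 19 Dlx and interneuron factors. In HRAS+MYC against MYC cultures 6 were higher and 27 lower (34.2% of all genes), in HRAS against MYC 10 and 18 (33.4%), and in MYC then HRAS against MYC 2 and 13 (20.4%). In HRAS then MYC cultures 2 were higher and 5 lower against HRAS (12.5%), and 6 higher and 1 lower against HRAS+MYC (12.1%). MYC then HRAS gave 0 and 2 against HRAS then MYC (3.28%) and 0 against HRAS+MYC (0.11%), and MYC+Bmi1 against MYC+Ezh2 gave 0 (0.00502%). The difference of the Bmi1 effects gave 0 and 5 (2.43%). These lists were chosen with earlier results known, and no test of the lists was made.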
